A study of Mus musculus with 12 samples.

Results

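The renin-angiotensin system was followed here through 9 of its genes in the abdominal aorta, out of 55092 features in the expression table. They were chosen by symbol: Agt, Ace, Enpep, Lnpep, Agtr1a, Agtr1b, Agtr2, Mas1 and Agtrap, and each had exactly 1 row. The libraries came from the infrarenal aorta of 12 male mice in 4 groups of 3, each carrying floxed alleles of CCN2 (gene symbol Ccn2), which encodes connective tissue growth factor, a matricellular protein. CFS mice were CCN2fl/fl given saline, CSS mice were CCN2SMCΔ given saline, CFA mice were CCN2fl/fl given angiotensin II (Ang II), and CSA mice were CCN2SMCΔ given Ang II. Ang II was delivered at 500 ng/kg/min from mini-osmotic pumps and tissue was taken at day 7. In CCN2SMCΔ mice the gene was deleted by Myh11-Cre-ERT2, a tamoxifen-inducible Cre active in smooth muscle cells (SMCs) whose transgene is carried by males only. The floxed controls lacked Cre and received tamoxifen too, in 5 doses from 8 weeks of age followed by a 2-week washout. The mice in these groups were not the ones rendered hypercholesterolemic elsewhere in the study. The comparisons ask whether loss of CCN2 in SMCs alters this pathway at rest (CSS against CFS) or during Ang II infusion (CSA against CFA), and what Ang II itself does in each genotype (CFA against CFS, CSA against CSS).

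In this pathway renin cleaves angiotensinogen, the product of Agt, to angiotensin I, and angiotensin-converting enzyme (Ace) converts that to Ang II. Ang II acts on the aortic wall mainly through AT1 receptors, which rodents encode in a pair of genes, Agtr1a and Agtr1b, while AT2 (Agtr2) and MAS (Mas1, the receptor for the shorter peptide angiotensin 1-7) are usually described as opposing AT1. Aminopeptidase A (Enpep) trims Ang II to angiotensin III, the insulin-regulated aminopeptidase (Lnpep) binds angiotensin IV, and Agtrap encodes a protein that binds the tail of AT1 and promotes its internalisation.

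Values were deposited as FPKM, fragment counts scaled for exon length and apparently also between libraries, though the labels do not state the latter. Whole fragments could be recovered from them, 14555506 to 23102743 per library. Ccn2 itself stood at 710, 1108 and 480 FPKM in CFS, 436, 640 and 587 in CSS, 1013, 1105 and 564 in CFA, and 255, 331 and 399 in CSA. It was lower in CSA than in CFA without overlap (log2 fold change −1.41, limma adjusted p = 0.00622; −1.56 without CSA 03), whereas CSS overlapped CFS (−0.40, adjusted p = 1; −0.094 without CFS 69). Gm15270 shares 23.2% of the exonic bases of Ccn2. The paper's qPCR of Ang II-infused aortas reported a larger loss of CCN2 mRNA than these FPKM show. The whole tissue also holds cells outside the Cre's reach, and their part in these Ccn2 values was not tested. Smooth muscle markers defined the tissue in 3 groups, with Myh11 (smooth muscle myosin) between 695 and 1187 FPKM, but Myh11 was 35.4, 37.7 and 46.5 in CSA. The sum of 8 smooth muscle genes was 5537 to 10325 FPKM outside CSA and 828 to 973 in CSA. By the rule given below, all 8 were called lower in CSA than in CFA, against 8.27% of all genes tested. Tagln, 1 of the 8, was at most 24.97 FPKM in any library and shares 67.9% of its exonic bases with Pcsk7 and Gm48529. The sum of 8 macrophage genes ran from 138 to 439 outside CSA and from 1506 to 1704 in CSA. For 8 fibroblast genes the sum was 2924 to 4244 outside CSA and 5241 to 6207 in CSA. They did not move together: by limma adjusted p, 3 were higher in CSA than in CFA (Lum, Col1a1, Col3a1) and 3 lower (Gsn, Pi16, Dpt). Of all genes tested, 40.7% passed that way. Library CSA 03 stood apart from the other CSA libraries (root mean square log2 difference up to 1.21, against 0.51 between those 2), and CFS 69 had an endothelial marker sum of 115 FPKM against 450 or more in the other CFS libraries, so values without CSA 03 follow for the 9 genes and most others named in CSA against CFA, and without CFS 69 where that library moved a saline value. In bulk tissue, fewer cells of a type and less RNA per cell cannot be told apart.

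Per length, Ace was the most abundant of these transcripts in CFS, and the order below it was Lnpep, Agtrap, Enpep, Agtr1b, Agt, Agtr1a, Mas1 and Agtr2. CFS means were 92.4 ± 31.1 FPKM for Ace (SD, n = 3), 20.9 ± 0.34 for Lnpep, 10.2 ± 0.91 for Agtrap, 9.83 ± 0.17 for Enpep, 7.30 ± 2.002 for Agtr1b, 2.98 ± 2.18 for Agt and 2.03 ± 0.31 for Agtr1a. Agtrap and Enpep overlapped each other, as did Agt with both AT1 receptor genes and Mas1 with Agtr2, so those neighbours are not ordered beyond their spread. Of the 9 genes, 7 reached 1 FPKM in at least 3 libraries and were tested with the 14676 genes that did so. Agtr2 and Mas1 did not.

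**Figure D1:**
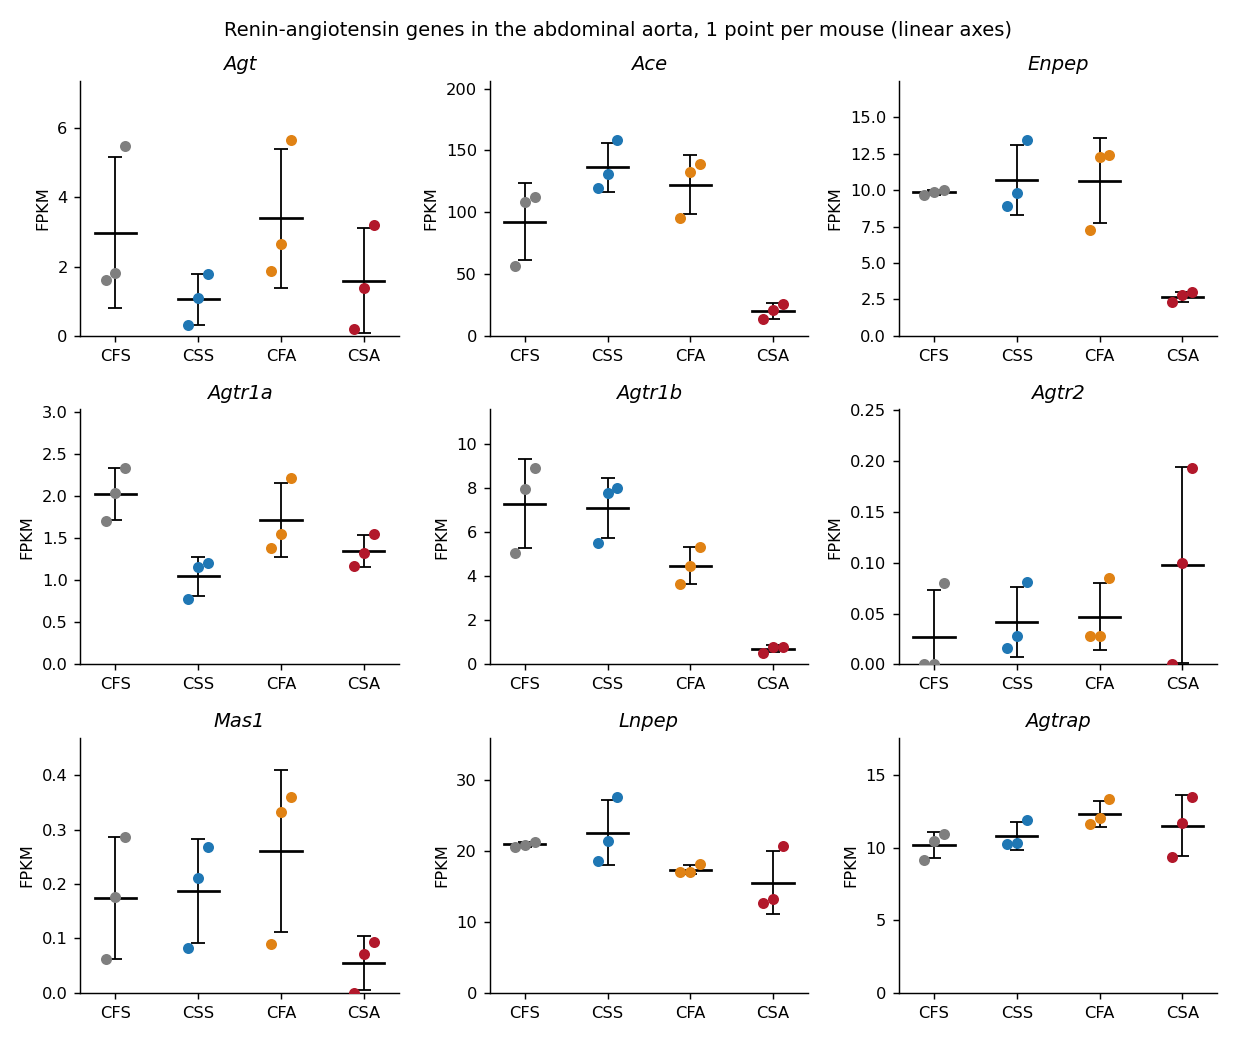
FPKM of the 9 genes (vertical axes, linear from 0, a separate scale per gene) in the 4 groups (horizontal axis). Each point is 1 mouse, thick lines are group means and error bars 1 SD. Ace, Enpep and Agtr1b are lower in every CSA mouse than in any other mouse, while Agtr1a, Lnpep and Agtrap in CSA overlap CFA. The share of all genes tested that separate this way was not counted.

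In Ang II-infused mice, loss of CCN2 in SMCs came with lower Ace, Enpep and Agtr1b, and no gene of the 7 was called higher. A call here needs a Benjamini-Hochberg adjusted p under 0.05 over all genes tested and a log2 fold change beyond 1.5, with log2 taken of FPKM + 0.1. By that rule 3 of 7 were called, against 17.2% of all genes tested in CSA against CFA. The median log2 fold change of the 7 was −1.46, against −0.04 over all genes tested. That median is the value of Agt, which was not called, and it was −0.52 without CSA 03.

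Ace, which generates Ang II and is carried by the endothelium among other cells, was 133, 95.5 and 139 FPKM in CFA and 26.03, 21.3 and 13.7 in CSA. In saline it was 113, 56.6 and 108 in CFS and 159, 120 and 131 in CSS. Every CSA mouse was therefore below every other mouse, and CFS 69 was the lowest of the rest. CSA was 6.12-fold lower than CFA (log2 fold change −2.61 ± 0.30 SE, limma adjusted p = 5.64e-05), and −2.35 without CSA 03 (adjusted p = 0.000107). These levels rest on 1107 to 15574 fragments per library. The endothelial marker sum was 224 to 505 FPKM in CFA and 138 to 174 in CSA. Among its 8 genes, Pecam1, Vwf and Tek were called lower and Emcn higher in CSA than in CFA (Emcn not without CSA 03). Of all genes tested, 8.27% were called lower and 8.95% higher. The other 4 passed in neither direction, Cdh5 (endothelial cadherin) among them at −0.36 (limma adjusted p = 0.501). Their part in the Ace result was not tested. In CFS 69, the library with the low endothelial sum, Pecam1 was 38.3 FPKM against 188 or more in the other CFS mice. Gm11651 shares 5.6% of the exonic bases of Ace, and the table does not say on which strand fragments were assigned there.

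Enpep, the enzyme that begins the breakdown of Ang II, was 12.4, 12.3 and 7.26 FPKM in CFA and 2.79, 2.32 and 2.98 in CSA. The saline mice lay between 8.89 and 13.4 FPKM. CSA again stood below all other mice, by 3.75-fold against CFA (log2 fold change −1.91 ± 0.22 SE, limma adjusted p = 5.44e-05; −1.98 without CSA 03). The pericyte marker sum, which includes genes of mural cells that are also known to carry aminopeptidase A, was 852 to 1522 FPKM in CFA and 283 to 298 in CSA, and most of it was Rgs5 (a regulator of G protein signalling), at 969 FPKM on average in CFA and 180 in CSA. Of its 8 genes, Rgs5 (−2.37) and Cspg4 (−2.72) were called lower, against 8.27% of all genes tested. Notch3 (−1.32) and Abcc9 (−1.02) were lower by adjusted p alone, which 40.7% of all genes tested passed. Kcnj8 (−0.16), Pdgfrb (−0.42), Higd1b (−0.18) and Vtn (1.12) did not pass. Without CSA 03, which had no Higd1b fragment, Higd1b was higher by adjusted p alone (1.24, limma adjusted p = 0.0479). In that setting Notch3 (−0.82) and Abcc9 (−1.25) still passed the adjusted p alone. Kcnj8 (0.054), Pdgfrb (−0.13) and Vtn (0.86) did not pass. Their part in the Enpep result was not tested.

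The AT1 receptor genes parted from each other. Agtr1b was 4.47, 3.64 and 5.32 FPKM in CFA (166 to 242 fragments) and 0.53, 0.81 and 0.79 in CSA (23 to 37 fragments). CSA was 5.66-fold lower, with log2 fold change −2.50 ± 0.25 SE and limma adjusted p = 2.3e-05; it was −2.58 without CSA 03. At this low level the fold depends on the pseudocount, and with 1 in place of 0.1 it was −1.67 (3.19-fold lower, limma adjusted p = 5.67e-05). Agtr1a, the other AT1 receptor gene, was 1.55, 1.39 and 2.22 FPKM in CFA (82 to 131 fragments) and 1.17, 1.32 and 1.55 in CSA (66 to 78 fragments). These ranges overlapped, and the log2 fold change of −0.31 did not pass (adjusted p = 0.330), with a 95% interval from −0.85 to 0.22; it was −0.41 without CSA 03.

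Agtr1b therefore made up the larger share of the summed AT1 receptor FPKM in 9 mice and the smaller in CSA. Its share was 70.6 to 74.3% in CFA and 71.2 to 82.3% in CFS, 82.6 to 91.2% in CSS, and 31.1 to 38.1% in CSA. In percentage points, the share differed by −38.1 in CSA against CFA (−37.8 without CSA 03), by −52.4 in CSA against CSS and by 9.21 in CSS against CFS. None of these 3 pairs of groups overlapped, and each reached the smallest p that 3 against 3 allow (exact permutation test, two-sided, p = 0.1). CFA against CFS differed by −5.17 with overlap (exact permutation p = 0.3). The sum of both genes averaged 2.05 ± 0.33 FPKM in CSA against 6.19 ± 1.26 in CFA (SD over 3 mice each). The same levels were set on the scale of the smooth muscle genes, which themselves were lower in CSA (median log2 fold change −2.80) and which leave the ratio of the pair as it was. On the log2 scale, Agtr1b minus the mean of the 8 genes was −5.75 ± 0.43 in CFA and −5.26 ± 0.45 in CSA, a difference of 0.49 with overlapping groups (exact permutation p = 0.3). That difference was 1.67 against Myh11 alone and 1.25 with a pseudocount of 1, without overlap in either case (exact permutation p = 0.1). Agtr1a minus the same mean was −7.09 ± 0.52 in CFA and −4.41 ± 0.45 in CSA, a difference of 2.68 without overlap (exact permutation p = 0.1, again the smallest possible). Without Tagln in the mean the differences were 0.59 for Agtr1b and 2.78 for Agtr1a, and without CSA 03 they were 0.25 and 2.42. Since Agtr1a itself differed by −0.31, its difference on this scale is mostly that of the lower smooth muscle genes.

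**Figure D2:**
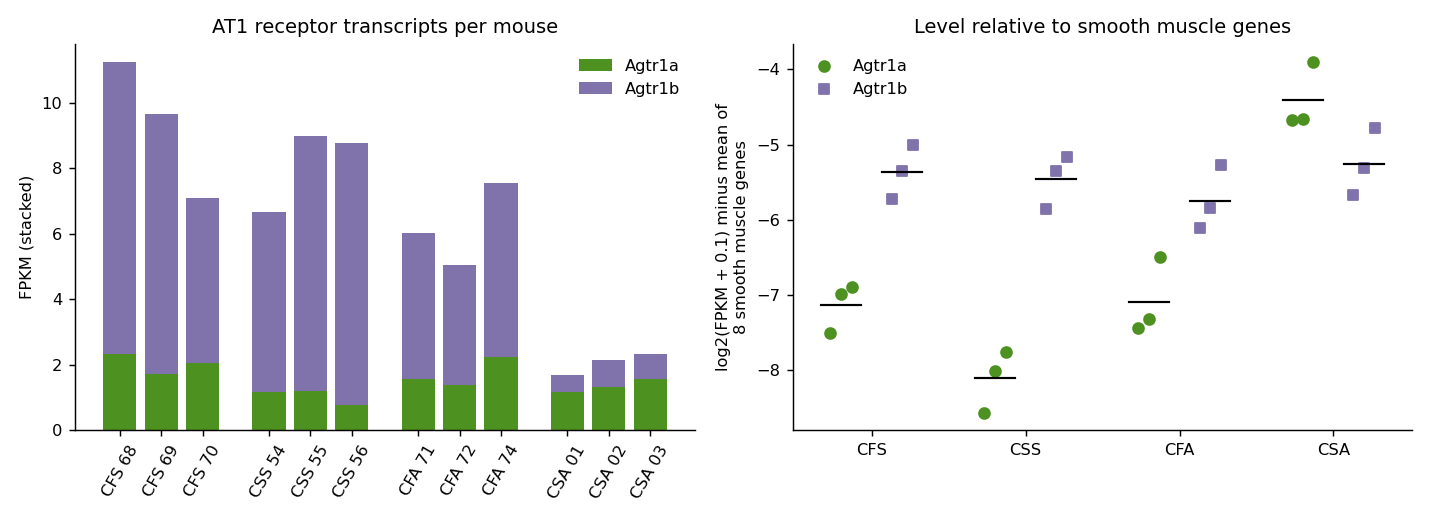
Left, stacked bars of Agtr1a and Agtr1b FPKM in each of the 12 mice (linear axis from 0). Right, log2(FPKM + 0.1) of each receptor gene minus the mean of 8 smooth muscle genes, 1 point per mouse with lines at the group means; Agtr1b overlaps among the 4 groups on this scale, while Agtr1a in CSA lies above the other 9 mice.

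Because the coding sequences of Agtr1a and Agtr1b are so alike, it matters whether fragments can be told apart. In GRCm38 each coding sequence is 1077 bases, 99 of them differ, and identity is 90.8%. No stretch of 100 or 150 bases was shared by the transcripts of the 2 genes, and 33 of the 50-base stretches were, 1.13% of those of Agtr1a and 1.54% of those of Agtr1b. Paired reads of 150 bases were used. The 60 coding bases with the most differences are printed to let the divergence be seen. They lie at chr13:30381917-30381976 on the plus strand for Agtr1a and chr3:20315418-20315477 on the minus strand for Agtr1b, both in coding exon, and capitals mark the 13 bases that differ.
Agtr1a: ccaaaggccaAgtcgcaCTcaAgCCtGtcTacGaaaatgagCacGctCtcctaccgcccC
Agtr1b: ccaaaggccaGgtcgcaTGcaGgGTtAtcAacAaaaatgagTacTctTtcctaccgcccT

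Agt, which encodes the precursor of the peptides, ranged widely within each group. It was 1.87, 2.67 and 5.66 FPKM in CFA and 3.20, 1.37 and 0.21 in CSA. In saline it was 1.63, 1.81 and 5.49 in CFS and 1.79, 1.08 and 0.32 in CSS. CSA 03 was the lowest of all mice with 6 fragments, and the CSA and CFA ranges overlapped (log2 fold change −1.46 ± 0.86 SE, limma adjusted p = 0.201, 95% interval −3.36 to 0.43; −0.52 without CSA 03). Perivascular fat is a known site of Agt expression. Adipoq (adiponectin, an adipocyte hormone) was 36.8, 40.4 and 159 FPKM in CFS, 58.3, 27.0 and 13.3 in CSS, 20.8, 49.0 and 63.2 in CFA, and 14.1, 22.6 and 5.67 in CSA. The order of the mice was the same for Agt and Adipoq in CFS, CSS and CFA. In CSA it was not, since CSA 01 had the highest Agt and CSA 02 the highest Adipoq. The summed level of 8 adipocyte genes was 199 to 708 FPKM in CFS, 74.1 to 275 in CSS, 104 to 283 in CFA and 62.1 to 103 in CSA, with Lep and Cidea at 0 in at least 1 CSA library. The part of fat in the Agt values was not tested.

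Lnpep and Agtrap did not pass in CSA against CFA. Lnpep was 17.0, 17.0 and 18.1 FPKM in CFA and 12.7, 13.3 and 20.6 in CSA, where CSA 03 was the high value. The log2 fold change was −0.20 (limma adjusted p = 0.443, 95% interval −0.62 to 0.22), and −0.42 without CSA 03, which passed the adjusted p alone (0.0290) but not the fold limit. By adjusted p alone, 40.7% of all genes tested passed in this comparison. Agtrap was 13.3, 11.6 and 12.005 FPKM in CFA and 13.5, 11.7 and 9.34 in CSA. Its log2 fold change was −0.11 with an interval from −0.44 to 0.21 (limma adjusted p = 0.569; 0.0275 without CSA 03), and the CSA and CFA levels overlapped.

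The receptors described as opposing AT1 were near the limit of detection. Agtr2 had 0, 5 and 0 fragments in CFS, 1, 5 and 2 in CSS, 2, 2 and 6 in CFA and 13, 7 and 0 in CSA, or 0.19 FPKM at most. A count of 0 allows up to 3 fragments, equal to 0.049 FPKM in CFS 68, 0.052 in CFS 70 and 0.059 in CSA 03. Mas1 had 3, 14 and 8 fragments in CFS, 4, 13 and 12 in CSS, 19, 5 and 20 in CFA, and 5, 4 and 0 in CSA, with a limit of 0.075 FPKM in CSA 03. With 3 mice against 3 the exact test cannot go below 0.1, so neither gene could pass in CSA against CFA (log2 scale, Agtr2 0.31, exact permutation p = 0.6; Mas1 −1.17, exact permutation p = 0.2). Without CSA 03 these differences were 0.74 and −0.88.

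Between CSS and CFS none of the 7 genes was called, against 0.0136% of all genes tested (2 genes), in a comparison where Ccn2 itself overlapped between the groups. By unadjusted limma p, 1 of 7 was under 0.05, as were 6.3% of all genes tested, and the precision-weighted fit (voom) to recovered fragments also called none. That gene was Agtr1a, at 2.33, 1.71 and 2.04 FPKM in CFS (89 to 120 fragments) and 1.16, 1.201 and 0.78 in CSS (47 to 62 fragments). The groups did not overlap, yet the log2 fold change of −0.90 ± 0.24 SE did not pass (unadjusted p = 0.003485, limma adjusted p = 0.398, and between 0.0566 and 1 over the alternatives), and it was −1.02 without CFS 69. Ace was higher on average in CSS, by 0.62 (adjusted p = 0.820), a value that fell to 0.30 without CFS 69. Agtr1b differed by −0.02 (95% interval −0.58 to 0.54) and Enpep by 0.10 (−0.38 to 0.58).

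Ang II in CCN2fl/fl mice likewise left none of the 7 called, against 0.0273% of all genes tested in CFA against CFS, and voom called none. By unadjusted limma p, again 1 of 7 was under 0.05, as were 9.42% of all genes tested. It was Agtr1b, with 8.89, 7.94 and 5.05 FPKM in CFS and 4.47, 3.64 and 5.32 in CFA. The highest CFA mouse exceeded the lowest CFS mouse, and the log2 fold change was −0.67 ± 0.25 SE (limma adjusted p = 0.435; −0.59 without CFS 69). Ace stood at 0.45 (95% interval −0.21 to 1.12) and at 0.13 without CFS 69. Agtr1a stood at −0.24 (−0.78 to 0.29).

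In CCN2SMCΔ mice the same infusion went with lower Agtr1b, Ace and Enpep. Those 3 of 7 were called in CSA against CSS, where 20.3% of all genes tested were. Agtr1b was 5.51, 7.77 and 7.98 FPKM in CSS, 8.88-fold above CSA (log2 fold change −3.15 ± 0.25 SE, limma adjusted p = 3.69e-06), or 4.70-fold with a pseudocount of 1 (−2.23). Ace was 6.86-fold lower in CSA (−2.78 ± 0.30, adjusted p = 2.61e-05) and Enpep 3.82-fold lower (−1.93 ± 0.22, adjusted p = 3.49e-05). Lnpep, at 27.6, 18.6 and 21.5 FPKM in CSS, passed the adjusted p alone (−0.55 ± 0.19, adjusted p = 0.0341), as 46.2% of genes tested did, and its highest CSA value lay within the CSS range. The adjusted p of Lnpep went from 0.000209 to 0.141 over the alternatives. Agtr1a stood at 0.35 without passing (adjusted p = 0.265). Without CSA 03 the values were −3.23 for Agtr1b, −2.52 for Ace, −2.01 for Enpep and −0.77 for Lnpep.

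The genotype difference under Ang II was set against that under saline by an interaction term, which is also the difference between the Ang II responses of the 2 genotypes. It was called for 3 of 7, against 15.2% of all genes tested. Ace gave −3.23 ± 0.43 SE on the log2 scale (limma adjusted p = 0.00039), Agtr1b −2.48 ± 0.36 (0.000626) and Enpep −2.01 ± 0.31 (0.000928). Agtr1a gave 0.59 ± 0.34, which did not pass (adjusted p = 0.241). Without CSA 03 the interaction was −2.97 for Ace, −2.56 for Agtr1b and −2.08 for Enpep, each still called. For Ace, Agtr1b and Enpep the comparisons share groups of mice, so CSA against CFA, CSA against CSS and the interaction are not separate evidence.

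**Figure D3:**
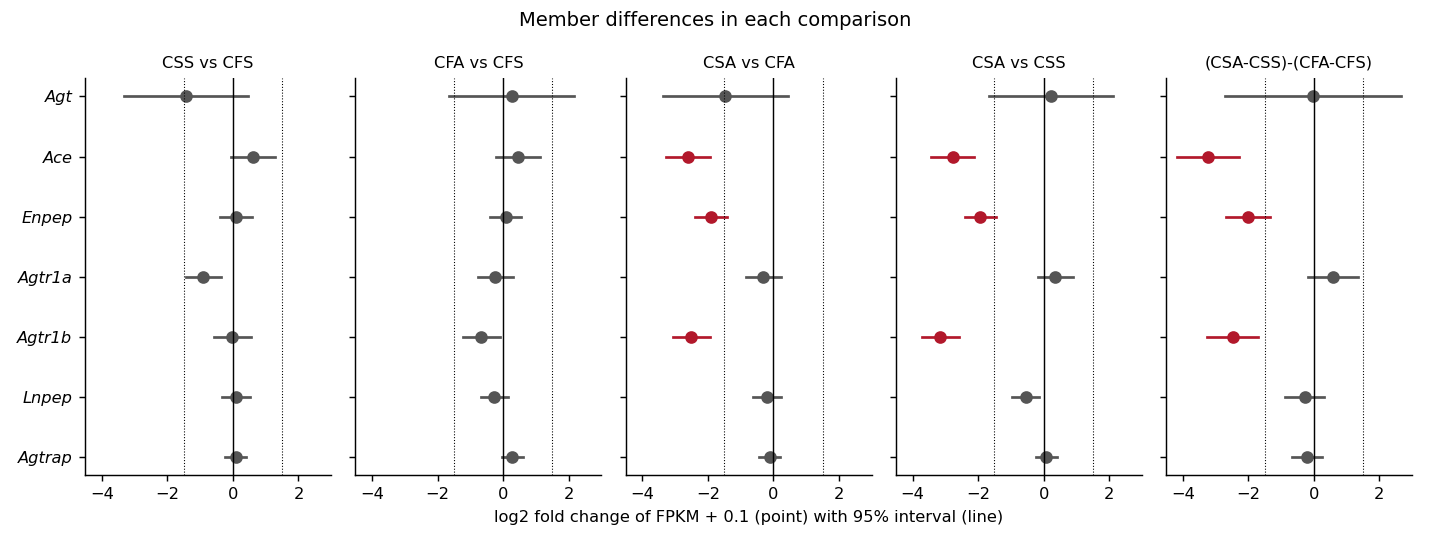
Log2 fold change of FPKM + 0.1 (points) with 95% intervals from limma (lines) for the 7 genes tested in the 4 comparisons and the interaction. Red marks values called at adjusted p under 0.05 and beyond the dotted lines at 1.5; Ace, Enpep and Agtr1b are red wherever CSA enters, and nothing is red in CSS against CFS or CFA against CFS.

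Promoter sequence is given for the 3 genes called lower in CSA than in CFA, as were 8.27% of all genes tested. RefSeq windows of GRCm38.p6 matched 8 of the 9 genes, Ace with 2 starts and the others with 1. Agtr1a had no window, so the promoters of the AT1 receptor pair could not be compared. The first Ace start is the one printed and described, and the window of the second held neither TATAAA nor GGGCGG. In the 250 bases before the start, the letters TATAAA were sought on both strands and found in Agtr1b and Agt on the gene's strand, 31 and 30 bases before the start, and in Ace and Enpep on the other strand, 31 and 52 bases before it, against 12.4% of 32817 promoter windows. The letters GGGCGG occurred at 4 positions in Ace, of which 2 overlap, and 4 in Lnpep, counting both strands, against 32.7% of windows. The letters CACCC, held by 52.0% of windows, occurred at 2 positions in Agt and at 1 in Enpep, Agtrap, Lnpep and each Ace window. The CArG box, the element bound by serum response factor at many contractile genes, was in none of these windows and in 1.5% of all. A match is a description of letters, not of binding. Capitals mark TATAAA, or its reverse complement, and GGGCGG. The windows are chr3:20367178-20367427 minus for Agtr1b, chr11:105967698-105967947 plus for Ace and chr3:129332750-129332999 minus for Enpep.
Agtr1b: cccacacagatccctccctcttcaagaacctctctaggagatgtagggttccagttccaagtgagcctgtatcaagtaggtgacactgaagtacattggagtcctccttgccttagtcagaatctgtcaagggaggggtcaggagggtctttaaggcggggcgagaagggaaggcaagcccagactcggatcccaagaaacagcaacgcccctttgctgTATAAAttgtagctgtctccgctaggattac
Ace: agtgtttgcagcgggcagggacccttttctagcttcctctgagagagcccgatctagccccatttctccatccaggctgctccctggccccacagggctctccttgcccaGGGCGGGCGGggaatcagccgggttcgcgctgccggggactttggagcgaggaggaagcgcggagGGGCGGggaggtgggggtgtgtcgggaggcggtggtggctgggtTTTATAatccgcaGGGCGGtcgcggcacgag
Enpep: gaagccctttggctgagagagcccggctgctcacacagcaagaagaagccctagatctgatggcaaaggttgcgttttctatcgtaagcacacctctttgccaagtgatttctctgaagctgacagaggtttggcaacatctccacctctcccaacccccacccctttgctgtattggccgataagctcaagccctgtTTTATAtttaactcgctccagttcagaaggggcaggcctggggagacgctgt

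A wider list of 16 peptidases and receptors that make, break or sense angiotensins had 12 genes tested. In CSA against CFA, 1 of the 12 was called, against 8.95% of all genes tested called higher and 8.27% called lower. That gene was Mme (neprilysin, which yields angiotensin 1-7), at 3.41, 3.02 and 1.71 FPKM in CFA and 0.18, 0.21 and 0.46 in CSA. It was 7.41-fold lower in CSA without overlap (log2 fold change −2.89 ± 0.35 SE, limma adjusted p = 8.5e-05), it was −3.20 without CSA 03, and its interaction was −3.02 (adjusted p = 0.00142). With Mme, 5 of the 12 passed the adjusted p alone, close to the 40.7% of all genes tested. The other 4 were each higher in CSA: Prcp and Ctsa, lysosomal carboxypeptidases, by 0.96 (adjusted p = 0.000335) and 0.80 (0.000349), Nln (neurolysin) by 0.73 (0.0147) and Atp6ap2 (the prorenin receptor) by 0.33 (0.0185). Without CSA 03 these were 0.98, 0.91, 0.50 and 0.32, and each still passed the adjusted p alone. Ctsa shares 17.4% of its exonic bases with Neurl2 and Pltp.

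The remaining 7 tested genes of that list did not pass in CSA against CFA. They were Klk1 (tissue kallikrein) at 1.83 (limma adjusted p = 0.0902), Cma1 and Mcpt4 (mast cell chymases) at 0.73 and −0.46, Anpep (aminopeptidase N) at 0.37, Cpa3 (mast cell carboxypeptidase) at −0.30, Prep (prolyl endopeptidase) at −0.22 and Thop1 (thimet oligopeptidase) at −0.07. Without CSA 03 they stood at 2.02, 0.21, −0.66, 0.33, −0.98, −0.27 and 0.21 in the same order, and none passed (limma adjusted p from 0.0645 to 0.842). Klk1 was called higher in CSA against CSS (3.26, limma adjusted p = 0.00618), where 20.3% of all genes tested were called. Its interaction was called too (4.17, limma adjusted p = 0.0191), against 15.2% of all genes tested. Klk1 was 0.10 to 0.26 FPKM in CSS (2 to 6 fragments), 1.05 to 2.05 in CFS, 0.17 to 3.85 in CFA and 2.06 to 3.28 in CSA. In CSS against CFS it stood at −2.33 (limma adjusted p = 0.614). Chymases can form Ang II without ACE, and the mast cell marker sum was 15.9 to 25.5 FPKM in CFA and 23.9 to 26.9 in CSA. Within that sum, 5 of 8 genes were tested and did not move together. Hdc (3.72) and Hpgds (2.32) were called higher in CSA, against 8.95% of all genes tested. Kit (−1.12) was lower by adjusted p alone, which 40.7% of all genes tested passed, and Gata2 (−1.53) and Tpsb2 (−0.40) did not pass. Hdc passed the filter only through CSA, where it is high. The part of mast cells in these values was not tested. Ren1, Ctsg and Mrgprd were below the filter. Ren1 (renin) had 2, 0 and 12 fragments in CFS, 0, 5 and 0 in CSS, 5, 31 and 6 in CFA, and 21, 27 and 17 in CSA. CSA overlapped CFA and did not overlap CSS (exact permutation p = 0.1 for the latter, the smallest possible). Mrgprd, a receptor for the related peptide alamandine, had at most 3 fragments in any library. Ctsg (cathepsin G, a neutrophil protease) had 28, 7 and 8 fragments in CSA and 0 in the 9 other libraries. The summed level of 8 neutrophil genes was 510 to 558 FPKM in CSA and 28.1 at most elsewhere, and its part in the Ctsg values was not tested.

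Downstream of the angiotensin receptors, 25 genes that couple or modify their signalling, mostly that of AT1, were all tested. In CSA against CFA 3 were called higher and 4 lower, against 8.95% and 8.27% of all genes tested. By adjusted p alone 6 were higher and 11 lower and 8 did not pass, against 40.7% of all genes passing. Their median log2 fold change was −0.35, against −0.04 over all genes tested. The 4 largest differences were in Arrb2 (β-arrestin 2, which uncouples the receptor), Plcb2 and Plcb4 (phospholipase C isoforms) and Rgs2 (a brake on Gq proteins). Arrb2 was higher in CSA, at 60.03 ± 12.2 FPKM against 6.98 ± 2.76 (SD, 3 mice each; log2 fold change 3.13, limma adjusted p = 5.11e-06), while Plcb2 stood at 4.42 ± 1.69 in CSA against 0.46 ± 0.33. Plcb2 passed the filter only through CSA, where it is high, so its call is no independent sign of a difference. Rgs2 was also higher, at 24.9 ± 5.95 against 6.82 ± 1.16 (1.84, 2.5e-05). Plcb4 was lower, at 5.21 ± 1.84 against 23.3 ± 2.32 (−2.19, 2.07e-05). Without CSA 03, Plcb2 dropped below the filter, and of the 24 others 2 were called higher and 4 lower, with Arrb2 at 3.31, Rgs2 at 1.66 and Plcb4 at −2.46. The other called genes, named after their values were seen, were Itpr1 (the inositol trisphosphate receptor of calcium stores), Arhgef12 (a guanine nucleotide exchange factor) and Rock1 (a kinase that promotes contraction), each lower in CSA, at −1.78, −1.73 and −1.54, and at −1.87, −1.79 and −1.95 without CSA 03. Arrb2 and Plcb2 are also abundant in leukocytes, and Ptprc (CD45, the common leukocyte antigen) was 2.80 FPKM at most in CFA and 17.3 to 29.5 in CSA. Its part in these results was not tested.

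**Figure D4:**
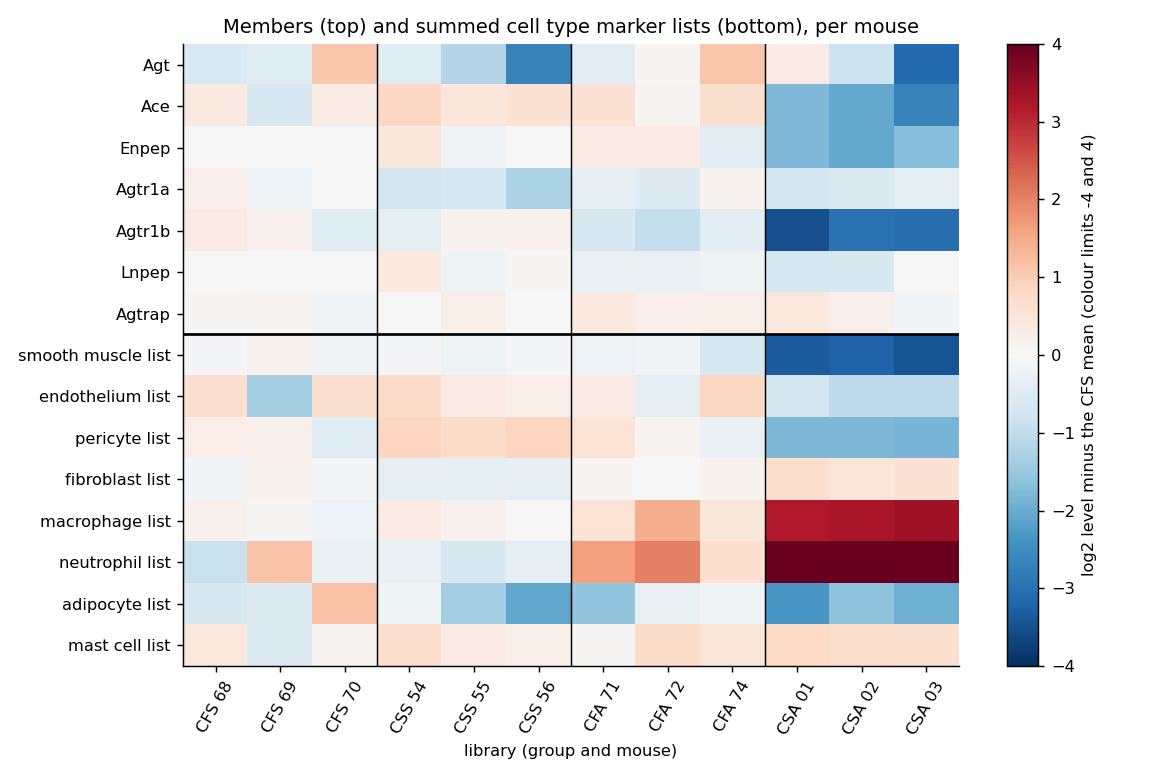
Log2 level of the 7 tested genes and of the summed FPKM of 8 cell type marker lists (rows) in each mouse (columns), minus the CFS mean of that row; colours run from −4 (blue) to 4 (red) and stronger values take the end colour. The smooth muscle list, Ace, Enpep and Agtr1b are blue in CSA, the macrophage and neutrophil lists are red, and Agt follows single mice rather than groups.

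Across the 12 libraries, the tested genes whose log2 levels were most like that of Agtr1a were Tmem135 (Pearson r = 0.936), Pdk1 (0.890), Gm6768 (0.872), Stc1 (0.862) and Hnmt (0.845). These correlations are descriptive, and the points share 4 groups of 3 mice. By position in GRCm38, Ace lies at chr11:105967945-105989964 plus, Enpep at chr3:129269175-129332720 minus, Agtr1b at chr3:20314473-20367177 minus and Agtr1a at chr13:30336441-30382867 plus, each annotated as protein coding.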

How the data were processed

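Poly(A)-selected RNA from 12 aortas was sequenced as 150-base paired reads, and per the labels the authors' processing notes name HISAT2 2.0.5, StringTie 1.3.3b and featureCounts 1.5.0-p3 on mm10. The authors deposited FPKM for 55092 features, of which 54409 had a symbol in GENCODE M21. Median-of-ratios size factors computed from these FPKM were 1.0135 in every library, which is what such scaling before deposit would leave, though the labels do not state it. Low values were whole multiples of a step, and 98.4 to 98.7% of values under 100 fragments came out whole (tolerance 0.1). Intervals and limits from fragments cover counting error only. log2(FPKM + 0.1) was fitted with limma 3.58.1 (R 4.3.3; trend and robust empirical Bayes, 1 coefficient per group, all 12 libraries) for the 14676 genes with at least 1 FPKM in at least 3 libraries, with Benjamini-Hochberg adjustment. Genes below that filter were compared by exact two-sided permutation tests (Python 3.11.15). The study's own test (DEG-Seq) takes counts and was not used on FPKM. Replicates are separate mice, and mouse numbers do not pair groups. Scripts were tested on simulated data. The members and gene lists were chosen with earlier results of these data known. Named genes were the 9 members, every tested gene of the peptidase list, the 4 largest differences of the coupling list, the 5 genes most like Agtr1a and leading cell type markers. Also named were the other called genes of the coupling list, after their values were seen, and Ren1, Ctsg and Mrgprd, which were below the filter. Alternatives were another pseudocount, other filters, other scalings, plain empirical Bayes, array weights, no fold limit, only the groups compared, each mouse left out and, added after seeing the data, voom on recovered fragments, the share of Agtr1b, Agtr1b relative to smooth muscle genes, the smooth muscle mean without Tagln, and values without CSA 03 or CFS 69 of genes outside the 9, of that share and of list medians. Sequences are from GENCODE M21, its genome and RefSeq. The result for 1 gene of the peptidase list is not reported here.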

Additional observations from a re-analysis of the deposited data

Results flagged for a closer look

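The genotype difference differed between infusions in 3 of the 7 genes tested, against 15.2% of all genes tested, by the interaction term fitted across all genes with limma. On the log2 scale, the difference under Ang II minus that under saline was −3.23 for Ace, −2.48 for Agtr1b and −2.01 for Enpep. In each case all 3 CSA mice lay below the 9 other mice. That separation comes from the same values as the term, so it is not separate evidence. Its share over all genes tested was not counted. The interaction was called in each alternative in which it could be fitted, 19 for Ace, 18 for Agtr1b and 19 for Enpep, median-of-ratios scaling not counted.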

How the results depend on the processing

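Ace, Enpep and Agtr1b stayed called in CSA against CFA, in CSA against CSS and in the interaction under each alternative in which they were tested, and none of the 7 genes was called in CSS against CFS or CFA against CFS under any. The fold understates low genes such as Agtr1b, whose CSA levels rest on 23 to 37 fragments: with a pseudocount of 1 its CSA against CFA value was −1.67. A mean of at least 5 FPKM left out Agtr1a, Agtr1b and Agt. Median-of-ratios scaling had the same factor, 1.0135, in every library, so it acted only through the pseudocount and is no check of scaling: it moved no log2 fold change of the 7 genes by more than 0.0022, and 2528 calls in CSA against CFA became 2523. Scaling to library totals moved the median of all genes by 0.08 at most. No paired analysis was possible because the groups share no mouse number. Counts over all genes moved more. In CSA against CFA, 2528 genes became 1601 with a pseudocount of 1, 1095 at a mean of at least 5 FPKM, 5978 with no fold limit and 1940 to 2612 with a mouse left out. In CSA against CSS, 2977 became 1918, 1272, 6781 and 2361 to 2962 under the same settings. In the interaction, 2231 became 1078 at a mean of at least 5 FPKM, 3877 with no fold limit and 1808 to 2323 with a mouse left out. In CSS against CFS, 2 became 5 with no filter, 1 at a mean of at least 5 FPKM, 4 scaled to library totals, 35 with array weights, 20 with only those groups and 0 to 16 with a mouse left out (16 without CSA 03). In CFA against CFS, 4 became 10 scaled to library totals, 1 with plain empirical Bayes, 147 with array weights, 0 with only those groups and 0 to 124 with a mouse left out (124 without CFA 74, 19 without CSA 03). Uncalled values near 0 changed sign, and the cause was not tested. With a mouse left out, Agtr1b in CSS against CFS ran from −0.26 to 0.15 (0.0396 scaled to library totals), Lnpep there from −0.0644 to 0.22 and Enpep there from −0.074 to 0.22. Enpep in CFA against CFS ran from −0.0576 to 0.33, Agtrap in CSA against CFA from −0.24 to 0.0275 and in CSA against CSS from −0.0441 to 0.22, and the Agtr2 difference from −0.036 to 0.74. Agt ran from −0.18 to 0.80 in CFA against CFS (−0.0311 with array weights), from −0.54 to 1.17 in CSA against CSS and from −0.79 to 0.92 in the interaction, where it was 0.0346 with a pseudocount of 1, 1.05 with array weights and 0.13 by voom.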
